A study of Mus musculus with 11 samples.

Results

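This report describes the Notch receptors and ligands and their target Hes1 in RNA from mouse embryonic stem cells (mESCs) and mouse embryonic fibroblasts (MEFs) of WT and Atxn7l3-/- genotype. The 10 genes are the ligands Dll1, Dll3, Dll4, Jag1 and Jag2, the receptors Notch1, Notch2, Notch3 and Notch4, and Hes1. They were chosen by name, and the group was selected on a measured value: Dll1 has one of the largest rises in Atxn7l3-/- mESCs. All values of the 10 genes that compare Atxn7l3-/- with WT mESCs are therefore a description, with no test. They are 10 of the 34570 genes that the tables of counts list: 31518 in mESCs, 29450 in MEFs and 26398 in both.

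The study asked what removal of ubiquitin from histone H2B does in development and transcription. ATXN7L3 is an adaptor protein that USP22, the ubiquitin protease of the SAGA coactivator, needs for that removal, and the related proteases USP27X and USP51 use it outside SAGA. Poly(A) RNA was sequenced from 11 libraries in 4 groups, with no treatment. All animals carried a mixed DBA/2 and C57BL/6 background, and the Atxn7l3 null allele came from a targeting construct with LacZ and Neo cassettes, recombined by a deleter strain in the mouse. Heterozygotes were crossed to give both genotypes. The mESCs were 2 WT and 3 Atxn7l3-/- libraries, and each line came from its own blastocyst. The lines were grown on feeder cells for their early passages and then without them, with LIF, 15% foetal calf serum, the MEK inhibitor PD0325901 at 1 uM and the GSK3 inhibitor CH99021 at 3 uM. The MEFs were 3 WT and 3 Atxn7l3-/- libraries, each from an individual E10.5 embryo without head and gut, grown in 10% foetal calf serum. A MEF culture made this way holds whatever cells of the early embryo attach and divide, and the mutant cultures held many round cells. Libraries are named here by genotype and replicate number, with KO for the libraries labelled Atxn7l3-/-.

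Notch receptors are read by ligands of the Delta-like and Jagged families on a touching cell. Binding lets ADAM proteases and then gamma-secretase cut the receptor, and the freed intracellular domain joins RBPJ and MAML proteins on DNA to switch on HES and HEY repressor genes. In the embryo the pathway paces somite formation, keeps neural progenitors from differentiating and shapes arteries, where NOTCH3 and JAG1 act in smooth muscle and pericytes.

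Total counts in mESCs were 45234276 in WT1, 44323540 in WT2, 35050190 in KO1, 40459852 in KO2 and 38381348 in KO3. In MEFs they were 49602605 in WT1, 34515342 in WT2, 46722650 in WT3, 43234808 in KO1, 45963728 in KO2 and 38283644 in KO3. A floor of 3 counts lay between 0.06048 CPM (counts scaled to a common library size, in the usual unit) in MEF WT1 and 0.08692 CPM in MEF WT2. Such floors, and the intervals on low counts given with some genes, cover counting error only. CPM values are scaled within a cell type, so they are compared between libraries of 1 cell type.

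Atxn7l3 itself separated the labels in mESCs and less so in MEFs. In mESCs it was at 222 and 223 CPM in WT1 and WT2 and at 3.91, 1.79 and 0.976 CPM in KO1, KO2 and KO3. It fell by 6.65 on the log2 scale in mESCs (SE 0.53, adjusted p = 0.0211). That call was lost without WT1 (adjusted p = 0.138) or WT2 (adjusted p = 0.0659), while KO stayed far below WT in every library, and the p ran from 1.31e-35 to 0.138 over its alternatives. In MEFs Atxn7l3 was at 79.7, 104 and 92.9 CPM in WT1, WT2 and WT3 and at 49.2, 49.5 and 67.3 CPM in KO1, KO2 and KO3. All 3 KO libraries lay below all WT libraries, yet each kept far more RNA of the targeted gene than a KO mESC library: 13.7, 13.5 and 17.8 RPKM (CPM scaled over all 11 libraries, per kb of exon) against at most 0.811 RPKM. The MEF difference of -0.74 (SE 0.21, 1.67-fold) missed the test (adjusted p = 0.0715, from 0.0227 to 0.522 over its alternatives), and was -0.19 once the trend with GC content was taken out. RNA kept from a gene does not tell whether protein is made from it, and protein was not analysed here. The authors of the study report no detectable ATXN7L3 protein, and more ubiquitin on histone H2B, in Atxn7l3-/- cells of both types. The MEFs are named by their label below, as the MEFs labelled Atxn7l3-/-.

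The mESC libraries carried their defining markers. The 7 pluripotency genes summed to 4015 and 4643 CPM in WT1 and WT2 and to 3764, 3978 and 4025 CPM in KO1, KO2 and KO3, Tfcp2l1 being the highest in all but KO1, where Pou5f1 was. The 10 fibroblast genes summed to 1546 and 2634 CPM in the WT libraries and to 3531, 3619 and 6019 CPM in KO1, KO2 and KO3, with Fn1 the most abundant, Lum at 0 in WT1 and Dcn at 0 in WT2. Of the 9 mural genes, markers of smooth muscle and pericytes, 8 were listed, at 27.2 and 75.1 CPM in WT1 and WT2 and 136, 235 and 165 CPM in KO1, KO2 and KO3, Acta2 being the highest in all but WT1, where Des was. The presomitic mesoderm genes summed to 4.23 and 4.07 CPM in WT1 and WT2 and to 6.59, 5.50 and 7.91 CPM in KO1, KO2 and KO3, with Mesp2 the highest in all but WT2, where T was, and Ripply2 at 0 in all 5 libraries. Haematopoietic genes (4 of 6 listed) summed to 69.4 and 33.2 CPM in WT and to between 73.4 and 131 CPM in the KO libraries, led by Cd68. The sums of these 4 lists were thus higher in each KO than in each WT library, though single genes of them went either way, and their part in the Notch values was not tested. The other lists overlapped: epithelial genes summed to between 1245 and 2178 CPM with Cdh1 on top, endothelial genes (9 of 10 listed) to between 361 and 504 CPM with Pecam1 on top, and neural progenitor genes to between 70.9 and 121 CPM with Nes on top. The Y-linked gene Ddx3y was at 90.6 and 193 CPM in WT1 and WT2 and at 3.46, 0.882 and 225 CPM in KO1, KO2 and KO3, and Xist at 58.3, 51.0 and 2.80 CPM in KO1, KO2 and KO3 and at most 25.3 CPM in WT.

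The MEF libraries carried fibroblast RNA, with 16593, 47612 and 28120 CPM over the 10 genes in WT1, WT2 and WT3 and 30667, 31396 and 46390 CPM in KO1, KO2 and KO3, Fn1 being the highest in all but WT2, where Col1a2 was. Of the pluripotency list 5 of 7 genes were listed, at 39.2 to 89.0 CPM, with Sox2 the highest in WT1, Klf4 in WT2 and WT3, and Tfcp2l1 in KO1, KO2 and KO3. Haematopoietic genes summed to 292, 288 and 138 CPM in WT and to 545, 172 and 97.4 CPM in KO1, KO2 and KO3, led by Csf1r. Endothelial genes summed to 87.6, 19.5 and 31.5 CPM in WT and to at most 23.1 CPM in the KO libraries, 9 of 10 being listed, with Kdr the highest in WT1 and WT3, Egfl7 in WT2 and KO3, and Tek in KO1 and KO2, Cdh5 at 0 in KO3, while Pecam1 reached at most 0.392 CPM. Epithelial genes summed to between 5.93 and 43.0 CPM, with Krt19 the highest in the WT and Krt18 in the KO libraries. Presomitic mesoderm genes (6 of 8 listed) were at 13.6, 173 and 13.6 CPM in WT and at 8.15, 56.3 and 21.6 CPM in KO1, KO2 and KO3, led by Rspo3, with T at 0 in WT1 and in all 3 KO libraries. The mural and neural progenitor lists differed between labels and are given with the MEF results. By Xist, at 300 CPM in WT3 and at most 0.646 CPM in the other libraries, WT3 was the 1 MEF library with a female pattern, and its Ddx3y was at 0.218 CPM against 59.2 to 241 CPM elsewhere.

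Single markers that passed the edgeR test were picked out after their values were seen. In mESCs T, a gene of the presomitic list, was at 1.40 and 2.20 CPM in WT1 and WT2 and at 0.0902, 0.0715 and 0.106 CPM in KO1, KO2 and KO3. The log2 fold changes in mESCs were -4.29 for T (adjusted p = 0.0211), -4.14 for the endothelial gene Tie1 (adjusted p = 0.0256), -1.91 for the neural gene Tubb3 (adjusted p = 0.0307), -4.92 for the Y-linked gene Kdm5d (adjusted p = 0.0387), 1.45 for the epithelial gene Epcam (adjusted p = 0.0317) and 2.54 for the fibroblast gene Col1a1 (adjusted p = 0.0469). All of these calls were lost without WT1, WT2 or KO1: T (adjusted p = 0.138, 0.142 and 0.0815), Tie1 (0.154, 0.157 and 0.0815), Tubb3 (0.138, 0.227 and 0.0839), Kdm5d (0.154, 0.237 and 0.106), Epcam (0.215, 0.190 and 0.0835) and Col1a1 (0.138, 0.0659 and 0.116), the last also without KO2 (0.0680). Each is the 1 gene called in its list. Of the genes tested, all 9 of the fibroblast list were fitted higher, as were all 6 of the mural list, in which none was called. The other lists with a called gene were split. In the epithelial list 2 were fitted higher and 4 lower, with 3 and 5 in the endothelial and 2 and 2 in the presomitic list. In the neural list the numbers were 3 and 3, and in the sex list 1 and 4. Beside Epcam the keratin genes Krt8, Krt18, Krt19 and Krt5 were below WT in every KO library (log2 fold changes -2.30, -1.92, -3.01 and -3.01, not called). Beside Kdm5d the Y-linked genes Ddx3y, Eif2s3y and Uty overlapped (adjusted p = 0.756, 0.907 and 0.806), with KO3 above WT in each. Over its alternatives the p ran from 6.04e-06 to 0.142 for T, from 9.06e-08 to 0.157 for Tie1, from 2.11e-05 to 0.334 for Tubb3, from 3.93e-05 to 0.237 for Kdm5d, from 1.51e-04 to 0.215 for Epcam and from 7.33e-05 to 0.138 for Col1a1.

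In MEFs the same rule gives Tfcp2l1, Krt18, Flt1 and Cyp26a1, besides the mural genes Myh11 and Rgs5 below. Tfcp2l1 was at 1.15, 1.39 and 0.960 CPM in WT1, WT2 and WT3 and at 65.4, 53.9 and 25.0 CPM in KO1, KO2 and KO3. Krt18 was at 0.394, 0.614 and 0.174 CPM in WT1, WT2 and WT3 and between 4.74 CPM (KO2) and 27.4 CPM (KO1) in the KO libraries. Flt1 was at 14.1, 5.66 and 11.8 CPM in WT1, WT2 and WT3 and at 0.716, 0.616 and 0.549 CPM in KO1, KO2 and KO3. Each of these 4 is the 1 gene called in its list, and the lists were split: of the genes tested 1 was fitted higher and 3 lower in the pluripotency list, 2 and 2 in the epithelial, 3 and 5 in the endothelial and 1 and 2 in the presomitic list. Their part in the Notch values was not tested. The log2 fold changes were 5.36 for Tfcp2l1 (SE 0.46, adjusted p = 0.00591), 5.49 for Krt18 (SE 0.85, adjusted p = 0.0189), -4.06 for Flt1 (SE 0.49, adjusted p = 0.0114) and 2.55 for the presomitic gene Cyp26a1 (SE 0.50, adjusted p = 0.0333). Tfcp2l1 and Flt1 kept the call without any single library. Krt18 missed without WT1, WT3 or KO1 (adjusted p = 0.0579, 0.0648 and 0.0567), and Cyp26a1 without WT1, WT2, WT3, KO1 or KO2 (adjusted p = 0.0789, 0.0522, 0.110, 0.115 and 0.0894). Over its alternatives the p ran from 1.06e-28 to 0.0401 for Tfcp2l1, from 8.55e-12 to 0.0648 for Krt18, from 3.23e-15 to 0.0467 for Flt1 and from 0.00809 to 0.115 for Cyp26a1. The level of 1 group alone took some of them past the filter: T had 65 and 97 counts in WT and 3, 3 and 4 in KO mESCs, and Cyp26a1 5, 5 and 3 in WT and 32, 20 and 21 in KO MEFs. With at least 10 counts asked for in every library, T, Tie1 and Kdm5d in mESCs and Krt18, Cyp26a1 and Rgs5 in MEFs were not tested.

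**Figure D1:**
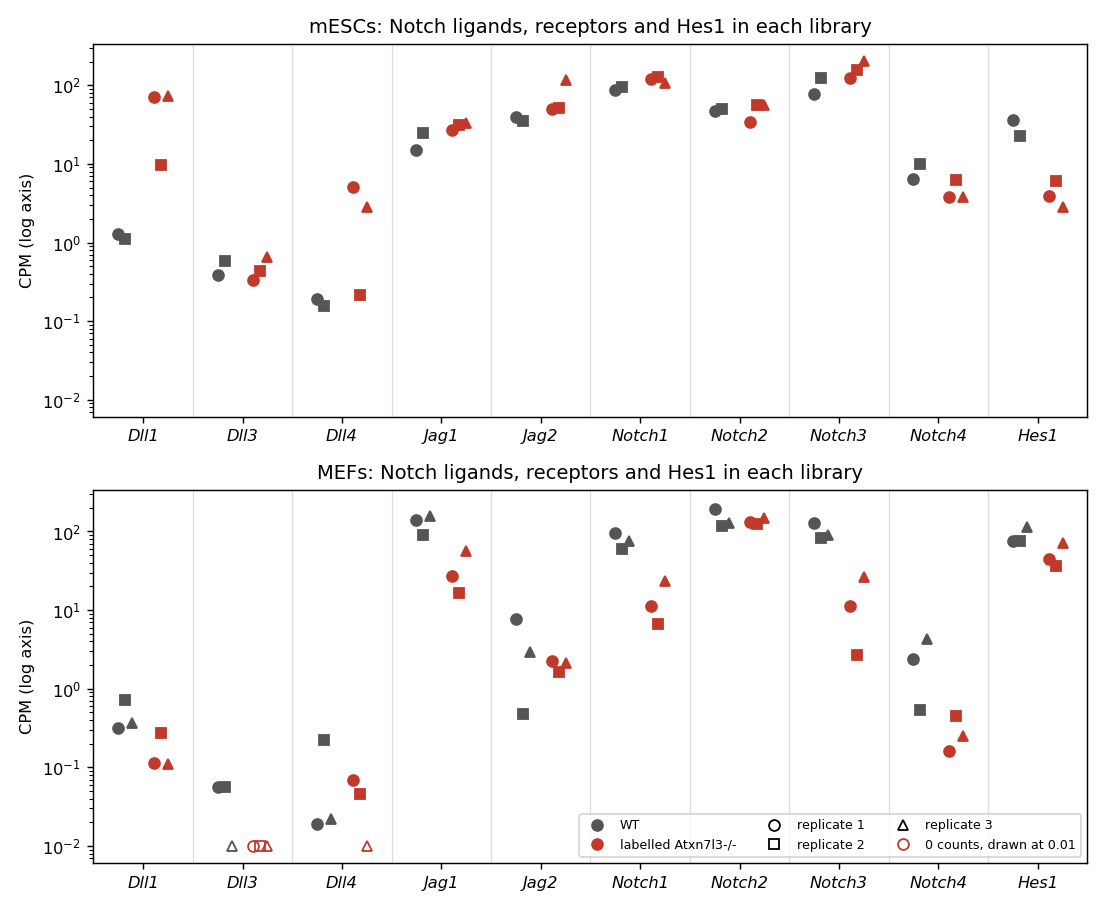
CPM of the 10 genes in each mESC library (top) and each MEF library (bottom) on a log axis, with open symbols for 0 counts. The MEF differences in Hes1, Jag2 and Notch2 change sign once the trend with GC content is taken out, and relative to the median of all genes Hes1 and Jag2 then lie at 0.02 and -0.01.

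In mESCs the ligand Dll1, which drives somite borders and the choice between neurons and progenitors in the embryo, went from almost no RNA to a level among the higher of the family in KO1 and KO3, and to a lower one in KO2. It was at 1.29 and 1.11 CPM in WT1 and WT2 and at 71.9, 9.77 and 73.9 CPM in KO1, KO2 and KO3, from 60, 49, 2391, 410 and 2802 counts. KO1 and KO3 were alike, KO2 was far lower, and all 3 stood above both WT libraries. The means were 1.20 ± 0.127 CPM (SD, n = 2) in WT and 51.9 ± 36.5 CPM (SD, n = 3) in Atxn7l3-/-. The log2 fold change was 5.43 (SE 0.92, 43.1-fold), rank 11 from the highest of 17800 genes, and ran from 4.39 to 5.93 over 13 alternatives. This is the value the selection rests on.

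Dll1 (ENSMUSG00000014773) lies on chromosome 17 at 15367354 to 15376872 on the minus strand. The 250 bases before 1 of its 2 start sites in RefSeq (GRCm38.p6, chr17:15376933-15377182, minus strand) are shown because Dll1 is the gene the selection turns on. Capitals mark the CACGCG match, the class C E box that HES and HEY proteins can bind.
Dll1: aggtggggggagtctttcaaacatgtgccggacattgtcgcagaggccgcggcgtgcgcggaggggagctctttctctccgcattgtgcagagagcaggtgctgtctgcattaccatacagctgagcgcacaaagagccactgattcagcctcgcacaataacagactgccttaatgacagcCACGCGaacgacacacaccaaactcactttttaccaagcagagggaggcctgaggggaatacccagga
Promoter windows of 250 bases were found for 9 of the 10 genes (10 windows, as Dll1 has 2), all but Hes1, and were searched on both strands. CACGCG was in 4 of 10 windows, against 7.62% of 32851 promoters of the same length. CACNAG, the N box, was in 4 of 10 against 36.7%. TGGGAA, the core of RBPJ's motif, was in 0 of 10 against 21.6%, which says no more than that these letters are not in these windows. The windows also differ from the rest in base composition, with a median GC content of 64.8% against 52.4%. A match is a string of letters and not a binding site.

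The neighbours of Dll1 were looked at as well. Of 8 genes that start within 200 kb of the Dll1 start, 6 passed the filter on low counts in mESCs. Prdm9, a histone methyltransferase of meiosis 187.5 kb away, had the lowest p of them, with 2.23 and 2.35 CPM in WT1 and WT2 and 5.11, 6.53 and 4.96 CPM in KO1, KO2 and KO3. Its log2 fold change was 1.27 (SE 0.41, adjusted p = 0.0948). Fam120b, the next gene at 19.4 kb, was at 20.8 and 14.4 CPM in WT and at 7.61, 14.0 and 6.36 CPM in KO1, KO2 and KO3. Its difference had the opposite sign to that of Dll1, -0.92 (SE 0.41, adjusted p = 0.181). The other genes tested there were Gm5091 (log2 fold change -2.59, SE 0.97, adjusted p = 0.127), Psmb1 (0.39, SE 0.21, adjusted p = 0.244), Tbp (-0.37, SE 0.19, adjusted p = 0.242) and Pdcd2 (0.06, SE 0.22, adjusted p = 0.891). The pseudogene Gm6686 did not pass the filter in MEFs and was not analysed here in mESCs. In MEFs, where 5 of the 8 passed, Prdm9 differed by 0.68 (SE 0.39, adjusted p = 0.266) and Fam120b by -0.04 (SE 0.18, adjusted p = 0.888). The noncoding gene A930024N18Rik overlaps the Dll1 start on the other strand and was not analysed here in mESCs. As the strand setting of the counting is not stated, reads of the overlap could be uncertain in origin.

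Dll4, the ligand of sprouting vessels, was close to the floor in WT mESCs and uneven in the Atxn7l3-/- lines. It was at 0.193 and 0.158 CPM in WT1 and WT2 (9 and 7 counts) and at 5.05, 0.214 and 2.85 CPM in KO1, KO2 and KO3 (168, 9 and 108 counts). The libraries high in Dll1, KO1 and KO3, were the ones high in Dll4, and KO2 lay next to WT. The log2 fold change of 3.91 (SE 1.23) rests on KO1 and KO3, the only libraries that took Dll4 past the filter. Dll3, a Delta-like protein that acts inside the cell to block Notch, stayed between 0.331 and 0.660 CPM with overlapping groups.

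The Jagged ligands moved less. Jag2 was at 39.5 and 35.5 CPM in WT1 and WT2 and at 50.2, 50.9 and 116 CPM in KO1, KO2 and KO3. The Jag2 groups did not overlap, but KO3 made most of the difference: the log2 fold change was 0.95 (SE 0.39) and 0.43 without KO3. Jag1 was at 14.9 and 24.4 CPM in WT1 and WT2 and at 27.1, 31.4 and 33.2 CPM in KO1, KO2 and KO3. Its WT libraries differed from each other by more than WT2 did from KO1, and its log2 fold change was 0.64 (SE 0.29).

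The receptors in Atxn7l3-/- mESCs were nearer their WT levels than Dll1, Dll4 and Hes1. Notch1, with Notch2 the broadly used receptor of the embryo, was at 87.4 and 94.1 CPM in WT1 and WT2 and at 121, 127 and 106 CPM in KO1, KO2 and KO3. Notch3 was at 77.9 and 123 CPM in WT1 and WT2 and at 123, 157 and 204 CPM in KO1, KO2 and KO3. Notch2 was at 47.2 and 50.3 CPM in WT1 and WT2 and at 33.9, 56.5 and 55.8 CPM in KO1, KO2 and KO3. Each Notch1 KO value was above WT, while Notch3 and Notch2 overlapped. Notch4, known from endothelium, was at 6.34 and 10.0 CPM in WT1 and WT2 and at 3.82, 6.32 and 3.83 CPM in KO1, KO2 and KO3, KO2 lying next to WT1. The log2 fold changes were 0.38 for Notch1 (SE 0.18), 0.68 for Notch3 (SE 0.29), -0.00 for Notch2 (SE 0.27) and -0.81 for Notch4 (SE 0.42).

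Hes1, the repressor gene that Notch signalling classically switches on, had less RNA where Dll1 had more. It was at 36.3 and 22.7 CPM in WT1 and WT2 and at 3.88, 6.03 and 2.85 CPM in KO1, KO2 and KO3. The groups lay far apart, with means of 29.5 ± 9.55 CPM (SD, n = 2) and 4.25 ± 1.62 CPM (SD, n = 3). Among the KO lines, KO2 had the most Hes1 and the least Dll1. The log2 fold change was -2.79 (SE 0.40, 6.93-fold), rank 407 from the lowest of 17800 genes, and ran from -3.13 to -2.43 over 13 alternatives. All 10 genes passed the filter in mESCs, Dll4 through its KO libraries alone. Of them 6 were fitted higher and 4 lower, with a median of 0.51 against 0.04 over all genes.

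Per length, the ligands traded places, while the receptors kept their order by mean level among themselves. The length of a gene was that of all its annotated exons merged, 14.23 kb for Notch1 and 8.09 kb for Notch3. Levels and shares compared between genes depend on that choice. In RPKM, mean levels in WT mESCs ran from Hes1 at 13.0 and Notch3 at 11.2, which overlapped, through Notch1 at 5.74, Jag2 at 4.84, Notch2 at 4.07 and Jag1 at 3.03. Below these came Notch4 at 0.916, Dll1 at 0.255, Dll3 at 0.154 and Dll4 at 0.0410 RPKM. In Atxn7l3-/- mESCs the order was Notch3 at 17.3, then Dll1 with 14.6, 2.08 and 15.0 in KO1, KO2 and KO3, Jag2 at 8.97, Notch1 at 7.22, Jag1 at 4.56, Notch2 at 3.94, Hes1 at 1.83, Dll4 at 0.601, Notch4 at 0.505 and Dll3 at 0.144 RPKM. There the neighbours Notch3 and Dll1, Dll1 and Jag2, Jag2 and Notch1, Jag1 and Notch2, and Dll4 and Notch4 overlapped. Dll1 made up 3.50% and 2.68% of the summed ligand RPKM in WT1 and WT2 and 56.2%, 15.2% and 42.9% in KO1, KO2 and KO3. The summed ligand level was 7.74 and 8.91 RPKM in WT and 25.9, 13.7 and 34.8 RPKM in KO1, KO2 and KO3, and that of the receptors 18.6 and 25.3 RPKM in WT and 23.4, 30.9 and 32.7 RPKM in KO1, KO2 and KO3. So the ligand sums stood apart by genotype and the receptor sums overlapped.

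**Figure D2:**
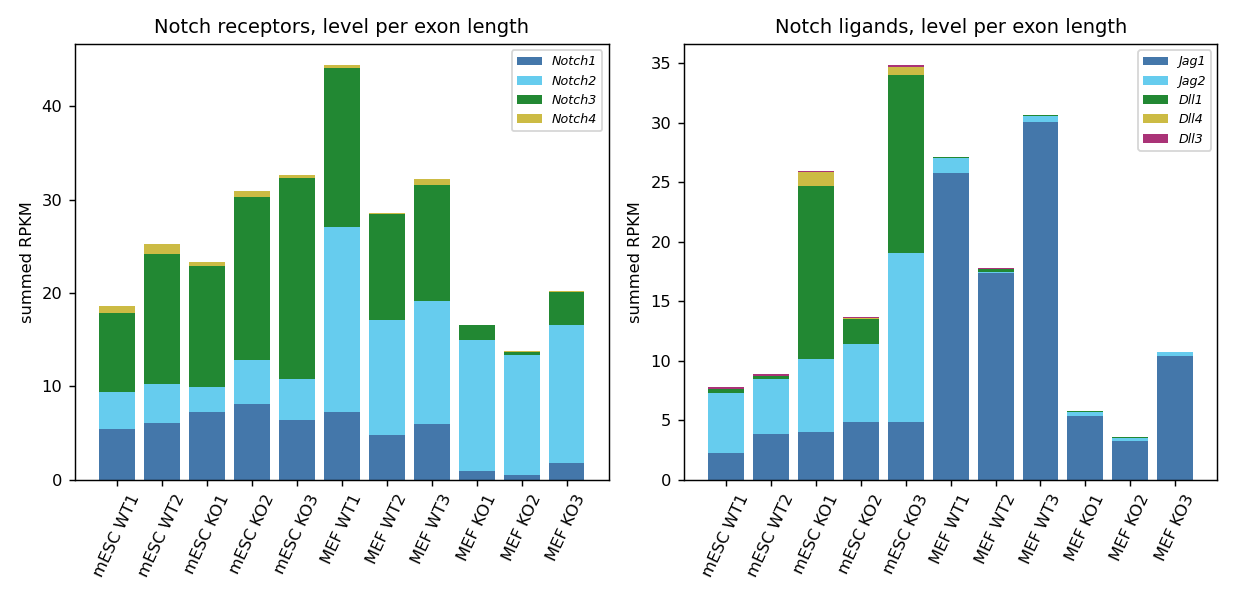
Summed RPKM of the 4 receptors and of the 5 ligands in each of the 11 libraries, stacked by gene. Dll1 fills much of the ligand bar in mESC KO1 and KO3, and Notch2 most of the receptor bar in the MEFs labelled Atxn7l3-/-.

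Beyond the 10 genes, 50 other genes of the pathway in 8 classes were listed, and 46 of them could be tested in mESCs. There 3 rose (adjusted p of 0.05 or less), where 6.96% of the 17800 genes were called. Dtx1, a ubiquitin ligase of the receptor and itself a known Notch target, was at 10.6 and 15.1 CPM in WT1 and WT2 and at 32.4, 28.4 and 63.0 CPM in KO1, KO2 and KO3. Numbl, a Numb-like inhibitor of the receptor, was at 23.7 and 24.1 CPM in WT1 and WT2 and at 46.9, 42.6 and 51.7 CPM in KO1, KO2 and KO3. Aph1c, a gamma-secretase subunit, was at 1.18 and 0.973 CPM in WT1 and WT2 and at 5.05, 4.65 and 5.09 CPM in KO1, KO2 and KO3. All KO values of these genes lay above WT, though Aph1c reads are uncertain because its paralog Aph1b is almost the same in sequence. The log2 fold changes were 1.69 for Dtx1 (SE 0.40, adjusted p = 0.0499), 0.98 for Numbl (SE 0.21, adjusted p = 0.0403) and 2.19 for Aph1c (SE 0.44, adjusted p = 0.0342). The median of the 46 was 0.09 against 0.04 over all genes.

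Those calls rest on few libraries. Without WT1, WT2 or KO1, edgeR called 0 of the pathway genes in mESCs, with 7, 10 and 11 at an unadjusted p under 0.05, and 0, 0 and 3 of all genes. Without KO2 it called 6 of 46, where 2242 of all 17495 genes were called. With all 5 libraries 15 were at an unadjusted p under 0.05, and DESeq2 called 12, for which no share over all genes is given here. Without KO3, Numbl also missed (adjusted p = 0.0504), as it did with the GC correction (adjusted p = 0.0659). Dtx1 missed with RLE size factors, at least 10 counts in every library, or the GC correction with the block (adjusted p = 0.0530, 0.0515 and 0.0519). In 1 fit of all 11 libraries Dtx1, Numbl and Aph1c missed (adjusted p = 0.120, 0.182 and 0.0575). Over their alternatives the p ran from 0.00174 to 0.284 for Dtx1, from 3.42e-04 to 0.247 for Numbl and from 2.46e-07 to 0.230 for Aph1c. Of the 4 other HES and HEY genes tested in mESCs none passed in the edgeR fit as reported, and they did not go 1 way. DESeq2 called Hey1, as did edgeR with at least 10 counts in every library. With no filter, with the replicate block, with that block and the GC correction, or without KO3, edgeR called Hey2. Hey1 was at 1.78 and 1.38 CPM in WT1 and WT2 and at 0.571, 0.405 and 0.396 CPM in KO1, KO2 and KO3. Its difference had the sign of Hes1 (log2 fold change -1.79, SE 0.49, adjusted p = 0.0659), as had that of Hey2 (-2.48, SE 0.66, adjusted p = 0.0620). Hes6 was above WT in every KO library (0.96, SE 0.39, adjusted p = 0.148), and Hes2 overlapped (0.71, SE 0.69, adjusted p = 0.519). Rbpj, the DNA-binding partner of every Notch receptor, was at 128 and 103 CPM in WT and at 108, 94.5 and 117 CPM in KO1, KO2 and KO3, with overlapping groups (log2 fold change -0.12, SE 0.20, adjusted p = 0.722).

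In MEFs the picture was different: Notch1 and Jag1 fell between labels, and Dll1 stayed near the floor. Notch1 (ENSMUSG00000026923) was at 94.8, 60.7 and 76.2 CPM in WT1, WT2 and WT3 and at 11.4, 6.59 and 23.2 CPM in KO1, KO2 and KO3. Jag1 (ENSMUSG00000027276), a ligand used between vessel wall cells, was at 139, 90.7 and 157 CPM in WT1, WT2 and WT3 and at 27.0, 16.6 and 55.7 CPM in KO1, KO2 and KO3. Notch3 (ENSMUSG00000038146) was at 127, 82.4 and 89.8 CPM in WT1, WT2 and WT3 and at 11.4, 2.65 and 26.5 CPM in KO1, KO2 and KO3. In each of these genes no KO library reached a WT library, KO2 was the lowest and KO3 the highest of the 3. The means were 77.2 ± 17.1 and 13.7 ± 8.56 CPM for Notch1, 129 ± 34.0 and 33.1 ± 20.2 CPM for Jag1, and 99.9 ± 24.2 and 13.5 ± 12.0 CPM for Notch3 (SD, n = 3 a group). The log2 fold change was -2.49 for Notch1 (SE 0.48, 5.63-fold, adjusted p = 0.0309) and -1.96 for Jag1 (SE 0.47, 3.89-fold, adjusted p = 0.0491). Notch3 had the larger difference, -2.89 (SE 0.76, 7.40-fold), and missed the test (adjusted p = 0.0594).

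The promoters of these genes are shown because the 3 genes differ together between the MEF labels. Each is upstream of a RefSeq start on the minus strand of GRCm38.p6: chr2:137116645-137116770 for Jag1, chr2:26503823-26504072 for Notch1 and chr17:32166891-32167140 for Notch3. The Jag1 stretch is the outer 126 bases of its window, without those next to the start, which lie within the annotated gene. All of the Notch1 stretch lies within the annotated Notch1 gene, which spans chr2:26457903-26516663. Capitals mark CACGCG, read on either strand, in Jag1, and CACNAG in Notch1 and Notch3.
Jag1: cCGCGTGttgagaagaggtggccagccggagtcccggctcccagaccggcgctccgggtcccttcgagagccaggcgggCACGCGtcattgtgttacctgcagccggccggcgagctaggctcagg
Notch1: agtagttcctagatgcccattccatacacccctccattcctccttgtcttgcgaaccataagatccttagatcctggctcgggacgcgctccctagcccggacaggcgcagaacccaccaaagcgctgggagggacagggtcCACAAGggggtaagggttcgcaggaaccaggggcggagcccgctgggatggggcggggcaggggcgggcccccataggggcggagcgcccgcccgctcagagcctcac
Notch3: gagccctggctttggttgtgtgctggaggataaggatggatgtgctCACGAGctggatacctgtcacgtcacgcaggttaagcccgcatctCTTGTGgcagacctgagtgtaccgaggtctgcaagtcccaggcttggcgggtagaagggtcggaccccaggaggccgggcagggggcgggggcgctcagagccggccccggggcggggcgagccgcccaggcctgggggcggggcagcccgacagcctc
Jag1 holds 2 CACGCG matches, Notch1 holds 1 CACNAG match and Notch3 holds 2.

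The remaining receptors and ligands differed among themselves. Notch2 was at 196, 118 and 127 CPM in WT1, WT2 and WT3 and at 131, 123 and 147 CPM in KO1, KO2 and KO3. Notch4 was at 2.42, 0.530 and 4.25 CPM in WT1, WT2 and WT3 and at 0.162, 0.456 and 0.247 CPM in KO1, KO2 and KO3. Hes1 was at 75.4, 76.5 and 115 CPM in WT1, WT2 and WT3 and at 44.1, 36.7 and 71.2 CPM in KO1, KO2 and KO3. The Notch2 groups overlapped, while in Notch4 and Hes1 each KO library was below each WT library, by a narrow margin between KO and the lowest WT. Dll1 was at 0.319, 0.725 and 0.371 CPM in WT1, WT2 and WT3 and at 0.115, 0.274 and 0.110 CPM in KO1, KO2 and KO3, from 17, 26, 17, 5, 12 and 4 counts. Jag2 was at 7.75, 0.474 and 2.94 CPM in WT1, WT2 and WT3 and at 2.24, 1.64 and 2.12 CPM in KO1, KO2 and KO3. Jag2 thus varied most within WT, and Dll1 was below WT in all 3 KO libraries at a few counts each. None of these genes passed the test by edgeR: adjusted p was 0.723 for Notch2, 0.0676 for Notch4, 0.132 for Hes1, 0.145 for Dll1 and 0.499 for Jag2. Dll3 had 3, 2 and 0 counts in WT and 0 in the other 3 libraries, and Dll4 at most 8 counts, so neither passed the filter.

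Of the 8 members tested in MEFs 2 were called, both lower. Of all 15958 genes 9.41% were called and 4.39% were called lower. The median log2 fold change of the 8 was -1.71 against -0.06 over all genes. Dll1 and Notch4 passed the filter with 10 or more counts in all 3 WT libraries but in 1 KO library. With the replicate number as a block, 4 members were called, where 14.0% of all genes were: Notch1 (adjusted p = 0.0213), Jag1 (adjusted p = 0.0191), Notch3 (adjusted p = 0.0386) and Hes1 (adjusted p = 0.0497). DESeq2 also called 4 members, but not the same ones: Jag1, Notch1, Notch3 and Notch4. Its share over all genes is not given here.

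The calls depended on single libraries. Notch1 missed without WT1, WT2, WT3, KO1 or KO2 (adjusted p = 0.0692, 0.0521, 0.0839, 0.0962 and 0.0678), and was called without KO3 (adjusted p = 0.0173). Jag1 missed without the same 5 libraries (adjusted p = 0.0903, 0.0649, 0.131, 0.139 and 0.120) and was called without KO3 (adjusted p = 0.0256). Over 15 alternatives the p ran from 1.76e-05 to 0.0962 for Notch1 and from 0.00120 to 0.139 for Jag1. Without KO3, the library labelled Atxn7l3-/- nearest to WT in these genes, Notch3 was called too (adjusted p = 0.0337) and the count was 3. Without WT2 it was 1, Notch4 (adjusted p = 0.0455). Without WT1, WT3, KO1 or KO2 edgeR called 0 members, with 6, 4, 4 and 5 at an unadjusted p under 0.05. With all 6 libraries, 6 members were at an unadjusted p under 0.05. The count over all genes moved too, with 1501 called in full and 464, 866, 197, 252, 285 and 2038 without WT1, WT2, WT3, KO1, KO2 and KO3.

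Base composition moved with the label in both cell types, in opposite directions. When genes were ordered into 5 equal bins of GC content, the median log2 fold change in MEFs was 0.42, 0.24, -0.02, -0.27 and -0.75 from the lowest bin to the highest. In mESCs it was -0.17, -0.07, 0.05, 0.15 and 0.24. With each library's trend taken out, the mESC log2 fold changes were 5.22 for Dll1, 3.77 for Dll4, 0.75 for Jag1, 0.64 for Jag2, 0.21 for Notch1, -0.13 for Notch2, 0.44 for Notch3, -0.30 for Dll3 and -2.97 for Hes1, with Notch4 further from 0 than without it. The median of all genes moved from 0.04 to 0.07. The 10 genes have GC contents from 48.9% (Jag1) to 61.4% (Notch4), mostly in the highest bins. In MEFs taking out the trend moved the median of all genes from -0.06 to 0.12. Relative to that median, Notch1 then differed by -1.97, Jag1 by -2.02, Notch3 by -2.25, Notch4 by -1.84 and Dll1 by -0.76. Without the correction the same values were -2.44, -1.90, -2.83, -2.99 and -1.41. Hes1, Jag2 and Notch2, fitted lower at -0.81, -0.90 and -0.14 without it, were fitted at 0.14, 0.11 and 0.48 with it. Jag2 and Notch2 also changed sign without WT1 and with no correction, to 0.22 and 0.13. Relative to the median Hes1, Jag2 and Notch2 were at -0.76, -0.84 and -0.08 without the correction and at 0.02, -0.01 and 0.36 with it. Hes1 and Jag2 thus lay next to all genes once it was made. Notch1 was still called (adjusted p = 0.0313), and Jag1 missed (adjusted p = 0.0531). The part of GC content in the calls was not tested further.

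**Figure D3:**
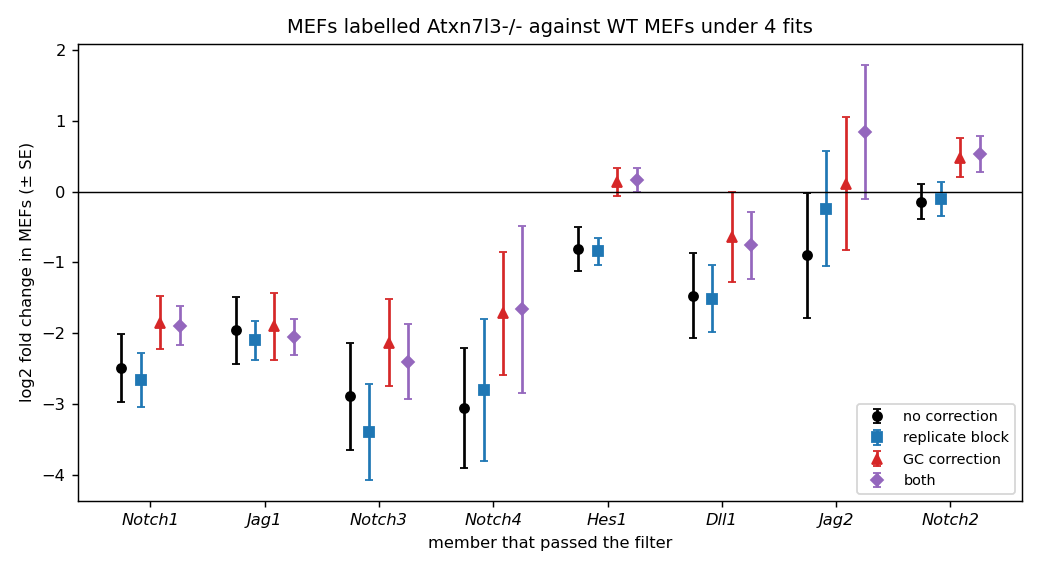
Log2 fold change with SE of 8 members in the MEFs labelled Atxn7l3-/- against WT, uncorrected, with the replicate number as a block, with GC correction, and with both. Hes1, Jag2 and Notch2 change sign with the GC correction, which leaves Hes1 and Jag2 next to the median of all genes.

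The summed mural markers in MEFs lay below WT in each KO library, as Notch1, Notch3 and Jag1 did. The 9 mural genes, all of them listed, summed to 7795, 9015 and 12929 CPM in WT1, WT2 and WT3 and to 1690, 1081 and 5103 CPM in KO1, KO2 and KO3. Acta2, the smooth muscle actin, was the most abundant, at 4847, 5641 and 8034 CPM in WT and 882, 634 and 2950 CPM in KO1, KO2 and KO3. Tagln came next, at 2583, 2683 and 4265 CPM in WT and 764, 427 and 1810 CPM in KO1, KO2 and KO3. Acta2 and Tagln made up most of the sum in every library, so the sum says little about the other mural genes. KO2 was the lowest and KO3 the highest of the libraries labelled Atxn7l3-/-, the order seen in the 3 Notch genes, and the pericyte channel genes Kcnj8 and Abcc9 were at 0 in KO2. All 9 were fitted lower and 2 of 9 fell: Myh11, a smooth muscle myosin (log2 fold change -4.30, SE 0.47, adjusted p = 0.00933), and Rgs5, a pericyte regulator (log2 fold change -5.44, SE 1.04, adjusted p = 0.0308). Rgs5 missed without WT1, WT2, WT3 or KO1 (adjusted p = 0.0636, 0.0520, 0.0842 and 0.0920). The other 7 missed, Acta2 with an adjusted p of 0.0880, and Pdgfrb, Cspg4 and Des overlapped between labels (adjusted p = 0.409, 0.333 and 0.301). The 7 neural progenitor genes, led by Nes, also lay apart, with 708, 105 and 634 CPM in WT and 66.9, 22.3 and 88.6 CPM in KO1, KO2 and KO3. The part of either marker list in the Notch values was not tested. In bulk RNA, fewer cells of a type and less RNA per cell cannot be told apart.

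**Figure D4:**
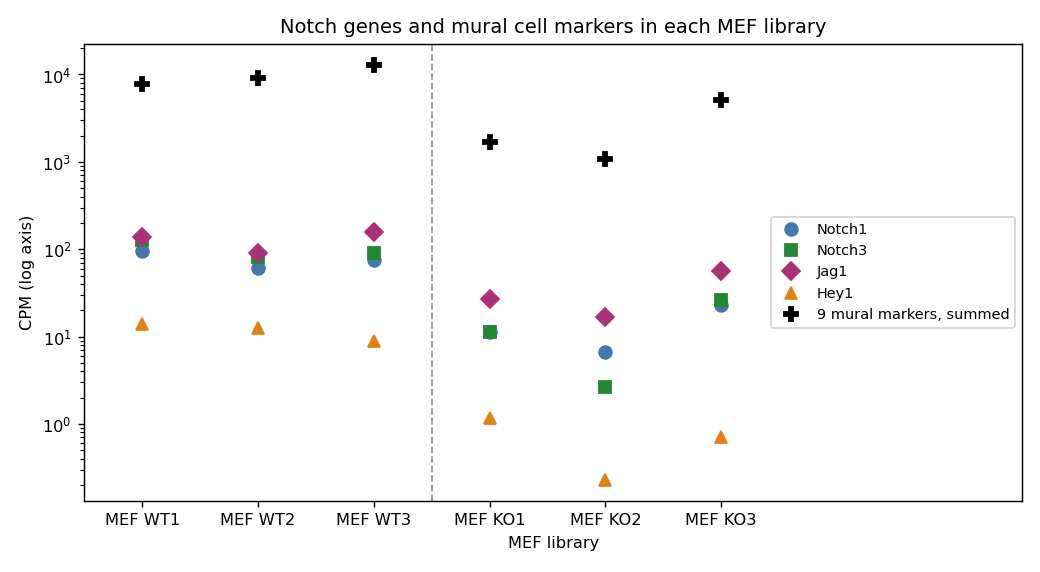
Notch1, Notch3, Jag1, Hey1 and the summed mural markers in each MEF library, in CPM on a log axis. Acta2 and Tagln make up most of that sum. The libraries labelled Atxn7l3-/- lie below WT in each, KO2 lowest and KO3 highest except in Hey1, where KO1 is highest.

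Per length, the MEF receptors shifted towards Notch2. It made up 44.5%, 43.0% and 40.9% of the summed receptor RPKM in WT1, WT2 and WT3 and 84.5%, 93.1% and 73.4% in KO1, KO2 and KO3. The Notch3 share was 38.5%, 40.0% and 38.6% in WT and 9.80%, 2.66% and 17.6% in KO1, KO2 and KO3. The Notch1 share was 16.3%, 16.7% and 18.6% in WT and 5.55%, 3.77% and 8.80% in KO1, KO2 and KO3. All 3 shares stood apart by label, while Jag1 made up between 90.1% and 98.1% of the summed ligand RPKM in every MEF library. Mean levels in WT MEFs were 48.5 RPKM for Hes1, 24.5 for Jag1, 15.1 for Notch2, 13.7 for Notch3, 6.00 for Notch1, 0.586 for Jag2, 0.330 for Notch4, 0.124 for Dll1, 0.0255 for Dll4 and 0.0145 RPKM for Dll3. The neighbours Jag1 and Notch2, Notch2 and Notch3, Jag2 and Notch4, Notch4 and Dll1, and Dll4 and Dll3 overlapped. In the MEFs labelled Atxn7l3-/- the order was Hes1 at 27.7, Notch2 at 13.9, Jag1 at 6.31, Notch3 at 1.85, Notch1 at 1.07, Jag2 at 0.322, Dll1 at 0.0442, Notch4 at 0.0400 and Dll4 at 0.0113 RPKM, with Dll3 at 0. Here Jag1 and Notch3, Notch3 and Notch1, Dll1 and Notch4, and Dll4 and Dll3 overlapped.

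Among the 46 other pathway genes tested in MEFs, the target Hey1 fell and the enzymes Psen2 and Eogt rose. Heyl and Dtx1 were called lower too, after passing the filter through their WT libraries. Hey1, a target gene of Notch in vessels and heart, was at 14.0, 12.4 and 8.96 CPM in WT1, WT2 and WT3 and at 1.18, 0.228 and 0.714 CPM in KO1, KO2 and KO3. Heyl, a target expressed in mural cells, was at 1.22, 5.80 and 3.31 CPM in WT1, WT2 and WT3 and at 0.162, 0.0684 and 0.330 CPM in KO1, KO2 and KO3. Dtx1, which was higher in Atxn7l3-/- mESCs, was at 1.22, 0.725 and 1.61 CPM in WT1, WT2 and WT3 and at 0.115, 0.0228 and 0.0549 CPM in KO1, KO2 and KO3. In these genes every library labelled Atxn7l3-/- was below WT. Heyl (7, 3 and 12 counts in KO1, KO2 and KO3) and Dtx1 (5, 1 and 2 counts) passed the filter through their WT libraries, and with at least 10 counts asked for in every library neither was tested. Psen2, a catalytic subunit of gamma-secretase, was at 16.7, 20.1 and 19.3 CPM in WT1, WT2 and WT3 and at 104, 76.3 and 91.3 CPM in KO1, KO2 and KO3. Eogt, which adds sugar to the receptor's EGF repeats, was at 28.2, 26.9 and 37.2 CPM in WT1, WT2 and WT3 and at 54.2, 53.6 and 62.7 CPM in KO1, KO2 and KO3. Both lay above WT in all 3 KO libraries.

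The log2 fold changes in MEFs were -4.06 for Hey1 (SE 0.66, adjusted p = 0.0214), -4.20 for Heyl (SE 0.85, adjusted p = 0.0356), -4.14 for Dtx1 (SE 0.69, adjusted p = 0.0221), 2.28 for Psen2 (SE 0.21, adjusted p = 0.00620) and 0.88 for Eogt (SE 0.21, adjusted p = 0.0472). Counted over the libraries, Dtx1 had 165 counts in WT and 8 in those labelled Atxn7l3-/-, a ratio of 18.9 (95% interval 9.36 to 44.5). Heyl had 425 and 22 counts, a ratio of 17.7 (95% interval 11.5 to 28.5). So 5 of 46 were called, where 9.41% of all genes were, a share close to that of all genes. Heyl and Dtx1, among the 5, had passed the filter through their WT libraries. Of the 5, 2 were higher and 3 lower, and 23 of the 46 were fitted to each side of 0, with a median of -0.01 against -0.06 over all genes. With the replicate number as a block 12 were called, where 14.0% of all genes were. By class, 2 of the 4 HES and HEY genes tested fell, 1 of 9 negative regulators fell, and 1 of 10 cleavage genes and 1 of 6 glycosylation genes rose. Hey2 and Hes6, the other HES and HEY genes tested, had log2 fold changes of -1.94 (SE 0.50, adjusted p = 0.0562) and -1.21 (SE 0.31, adjusted p = 0.0545), and both were among the 12 called with the block.

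Psen2 kept its call when any MEF library was left out, and the other calls did not. Hey1 missed without WT1 (adjusted p = 0.0550) or WT3 (adjusted p = 0.0601). Dtx1 missed without WT1, WT3, KO1 or KO2 (adjusted p = 0.0552, 0.0703, 0.0597 and 0.0768). Heyl missed without WT2, WT3, KO1 or KO2 (adjusted p = 0.0630, 0.0899, 0.111 and 0.107). Eogt missed without WT1, WT2, WT3, KO1, KO2 or KO3 (adjusted p = 0.0918, 0.0820, 0.0782, 0.131, 0.124 and 0.0691). The count was 2 without WT1, 1 without WT3, 2 without KO1, 2 without KO2 and 10 without KO3.

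Between the WT cell types, MEFs had more Jag1, Notch2 and Hes1 and less Jag2 than mESCs, with Dll3 near the floor in MEFs. Cell type, medium and table differ together here and cannot be told apart. Jag1 was at 2.27 and 3.80 RPKM in WT mESCs and at 25.8, 17.4 and 30.1 RPKM in WT MEFs. Notch2 was at 3.89 and 4.24 RPKM in WT mESCs and at 19.8, 12.3 and 13.2 RPKM in WT MEFs. Hes1 was at 15.8 and 10.2 RPKM in WT mESCs and at 40.2, 42.1 and 63.3 RPKM in WT MEFs. In these genes the cell types did not overlap, and the log2 fold changes were 3.01 for Jag1 (SE 0.49, adjusted p = 6.05e-04), 1.89 for Notch2 (SE 0.30, adjusted p = 4.89e-04) and 1.90 for Hes1 (SE 0.42, adjusted p = 0.00322). Jag2 was at 5.04 and 4.64 RPKM in WT mESCs and at 1.21, 0.0763 and 0.473 RPKM in WT MEFs, a log2 fold change of -3.04 (SE 0.77, adjusted p = 0.00708). Dll3 had 44 counts in WT mESCs and 5 in WT MEFs, a ratio of 10.6 (95% interval 4.23 to 34.4), with an adjusted p of 0.0102 that was 0.0704 without mESC WT2 and ran from 0.00534 to 0.0704 over its alternatives. Dll3 passed the filter through its mESC libraries alone, and it was not tested with at least 10 counts asked for in every library. WT MEFs were also below WT mESCs in Dll1, with a log2 fold change of -1.05 that is given as a description.

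Notch1 and Notch3 were at like levels in the WT cell types. Notch1 was at 5.45 and 6.02 RPKM in WT mESCs and at 7.24, 4.78 and 5.99 RPKM in WT MEFs. Notch3 was at 8.56 and 13.9 RPKM in WT mESCs and at 17.1, 11.4 and 12.4 RPKM in WT MEFs. Both overlapped, with log2 fold changes of 0.07 (SE 0.40, adjusted p = 0.902) and 0.28 (SE 0.65, adjusted p = 0.734) that turned to -0.02 and -0.03 with the GC correction. The correction moved the median of all genes from -0.00 to -0.13, relative to which both were at 0.11. Notch4 and Dll4 missed the test (log2 fold changes -1.47 and -0.78, adjusted p = 0.111 and 0.641). Of the 9 members tested 5 were called, where 53.9% of 19326 genes were, so the share is close to that of all genes. Dll3, among the 5, entered the test through its mESC libraries alone.

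Much of the other machinery also differed between the WT cell types. Of the 47 pathway genes tested 35 were called, where 53.9% of all genes were: 25 were higher and 10 lower in MEFs, with a median of 1.30 against -0.00 over all genes. Against that 53.9%, 9 of the 10 cleavage genes were called, all higher, among them Aph1b (log2 fold change 4.35, SE 0.40, adjusted p = 1.92e-05), whose reads are uncertain beside Aph1c. The Fringe enzymes, which set ligand preference by adding sugars to the receptor, went opposite ways: Lfng was higher (6.04, SE 0.61, adjusted p = 3.29e-05) and Mfng lower (-3.19, SE 0.89, adjusted p = 0.0116). The coactivators Maml2 (4.21, SE 0.58, adjusted p = 2.05e-04) and Maml3 (2.67, SE 0.54, adjusted p = 0.00206) were higher and Rbpj was lower (-1.22, SE 0.30, adjusted p = 0.00651). Of the HES and HEY genes Heyl, Hey1, Hey2 and Hes6 were higher (5.08, 3.20, 2.86 and 2.30). Heyl had 425 counts in WT MEFs and 11 in WT mESCs, a ratio of 32.0 (95% interval 17.7 to 64.5). Hes2 was lower, with 42 counts in WT mESCs and 5 in WT MEFs, a ratio of 10.1 (95% interval 4.02 to 32.9). Heyl and Hes2 each passed the filter through the cell type where it was higher. Neither was tested with at least 10 counts asked for in every library. The non-canonical ligands Dner (5.59) and Dlk1 (4.55) and the Deltex genes Dtx4 (2.82) and Dtx3 (2.22) were higher, and Dtx1 was lower (-3.13). Of these calls, Mfng and Hey2 were lost without mESC WT2 (adjusted p = 0.102 and 0.0503) and Rbpj without mESC WT1 (adjusted p = 0.0537). Dlk1 missed without mESC WT1 or WT2 or MEF WT2 (adjusted p = 0.114, 0.160 and 0.0902) and with the GC correction and the block together (adjusted p = 0.0515), and Dtx4 without mESC WT1 or WT2 or MEF WT1 (adjusted p = 0.0817, 0.190 and 0.0856). Hes2 missed without mESC WT1 or WT2 or MEF WT2 or WT3 (adjusted p = 0.0618, 0.127, 0.0594 and 0.0784).

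Set side by side, Dll1, Jag1 and Notch1 lay above WT in every Atxn7l3-/- mESC library and below WT in every MEF library labelled Atxn7l3-/-. The log2 fold changes were 5.43 and -1.47 for Dll1, 0.64 and -1.96 for Jag1, and 0.38 and -2.49 for Notch1, in mESCs and MEFs. Of all 19326 genes 4.73% lay above WT in mESCs and below it in MEFs, and 9.90% stood apart in opposite directions either way. These shares describe all genes and give no measure for the 10, which were chosen by the mESC value of Dll1. The difference between the cell types was not tested for the 10 genes, since the mESC side chose them. With the GC correction, which acts on opposite trends in the cell types, they were 5.22 and -0.64, 0.75 and -1.90, and 0.21 and -1.85. Hes1 lay below WT in both cell types, although its value in MEFs changes sign with the GC correction. Notch4 lay below WT in MEFs, while in mESCs KO2 and WT1 could hardly be told apart (6.32 and 6.34 CPM, 0.705 and 0.698 RPKM). Dll1 also differed in level: its highest MEF library had 0.193 RPKM, and its lowest KO mESC library 2.08 RPKM.

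**Figure D5:**
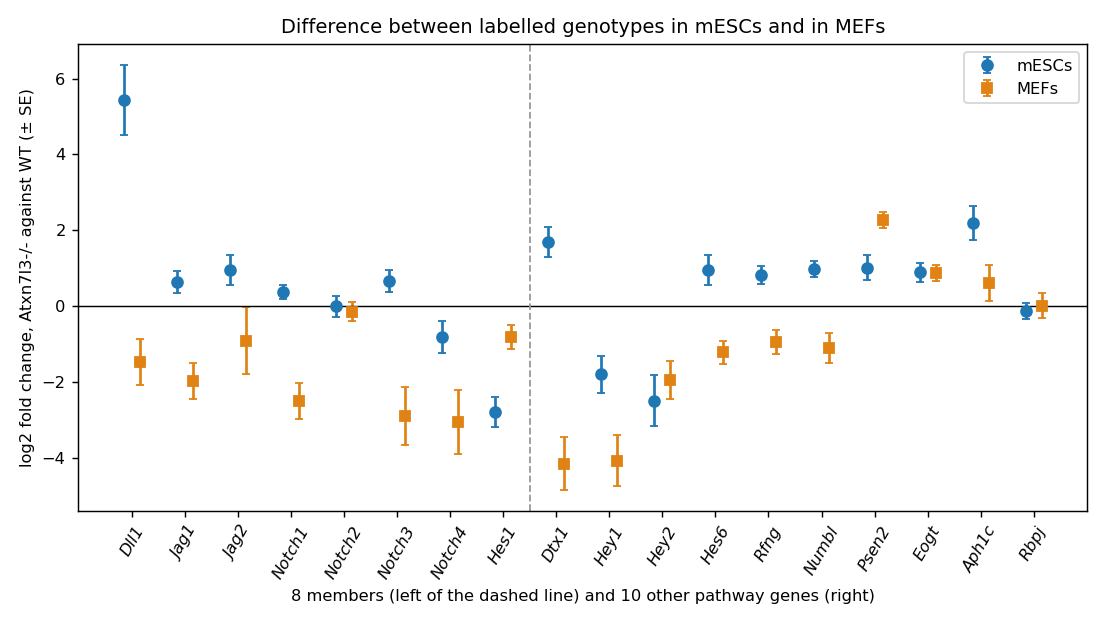
Log2 fold change with SE between labelled genotypes in mESCs and MEFs for 8 members and 10 other pathway genes. The mESC values of the members are a description, and in MEFs Hes1, Jag2 and Notch2 change sign with the GC correction, which leaves Hes1 and Jag2 next to the median of all genes.

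For the other pathway genes the difference between the cell types was tested, as the effect of the label in MEFs minus that in mESCs. It was called for 8 of 47, where 11.4% of 19326 genes were called, 5 of them negative and 3 positive. Dtx1 had the largest, -5.75 (SE 0.81, adjusted p = 0.00450), higher in Atxn7l3-/- mESCs and lower in the MEFs. Dner, a ligand of neural cells, was at 85.3, 51.5 and 43.1 CPM in WT MEFs and at 7.50, 0.182 and 2.53 CPM in KO1, KO2 and KO3. In mESCs Dner was at 1.42 and 1.63 CPM in WT and at 1.77, 1.91 and 5.96 CPM in KO1, KO2 and KO3. Its MEF libraries stood far apart and its mESC libraries barely, and the difference was -5.12 (SE 1.44, adjusted p = 0.0448). Hes6, an inhibitor of HES1, was at 30.2, 18.6 and 32.2 CPM in WT MEFs and at 11.8, 9.26 and 13.9 CPM in KO1, KO2 and KO3. In mESCs Hes6 was at 7.88 and 5.66 CPM in WT and at 15.2, 8.84 and 15.5 CPM in KO1, KO2 and KO3. The difference for Hes6 was -2.10 (SE 0.49, adjusted p = 0.0252).

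The difference was also negative for Numbl, at -2.02 (SE 0.50, adjusted p = 0.0297), and for Rfng, at -1.71 (SE 0.40, adjusted p = 0.0248). In MEFs Numbl overlapped, with 44.0, 68.6 and 87.0 CPM in WT and 22.6, 22.6 and 48.4 CPM in KO1, KO2 and KO3. Rfng, a Fringe enzyme, was at 31.0 and 34.5 CPM in WT mESCs and at 72.1, 48.4 and 54.3 CPM in KO1, KO2 and KO3. In MEFs Rfng was at 12.8, 19.1 and 13.2 CPM in WT and at 7.02, 6.61 and 9.89 CPM in KO1, KO2 and KO3. Rfng thus stood above WT in mESCs and below it in MEFs. The difference was positive for Psen2, the protease gene Adam17 and the coactivator gene Snw1, at 1.32 (SE 0.35, adjusted p = 0.0391), 1.18 (SE 0.31, adjusted p = 0.0354) and 1.05 (SE 0.30, adjusted p = 0.0494). Adam17 was at 73.6 and 73.0 CPM in WT mESCs and at 55.4, 62.5 and 57.7 CPM in KO1, KO2 and KO3. In MEFs Adam17 was at 103, 97.4 and 77.1 CPM in WT and at 173, 184 and 121 CPM in KO1, KO2 and KO3. The Adam17 groups overlapped in neither cell type. In mESCs Psen2 was at 14.3 and 11.7 CPM in WT and at 20.5, 23.4 and 34.9 CPM in KO1, KO2 and KO3, so it lay above WT in every KO library of both cell types, further in MEFs. Rbpj showed no called difference (0.21, SE 0.41, adjusted p = 0.755).

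Of these, Dtx1 was called under each of 18 alternatives and was not tested with at least 10 counts asked for in every library, and the count of 8 moved with single libraries. Without mESC WT1, WT2 or KO1 it was 1, in each case Dtx1, and without mESC KO3 it was 3, Dtx1, Psen2 and Rfng. Without MEF WT3 it was 2, Dtx1 and Rfng, and without MEF KO1 or KO2 it was 2, Dtx1 and Dner. Dner also missed without mESC KO2 or MEF WT1, WT2 or KO3 (adjusted p = 0.0509, 0.0638, 0.0561 and 0.0579). Psen2 missed without mESC KO2 or MEF WT1 (adjusted p = 0.0593 and 0.0582), and Snw1 without mESC KO2 or MEF WT1 or WT2 (adjusted p = 0.0740, 0.0564 and 0.0607). With the GC correction 5 were called, of which 3 were among the 8: Dtx1, Dner and Psen2. With the replicate block, set within each cell type, 5 were called as well, none of them positive. Rfng, Adam17, Psen2 and Snw1 missed (adjusted p = 0.0650, 0.0654, 0.0561 and 0.0847), while Dtx1, Dner, Hes6 and Numbl kept the call. In mESCs only KO3 carries replicate number 3, so with that block KO3 adds nothing to the mESC difference. The share over all genes is not given here for the block or the GC correction. With the GC correction Hes6, Numbl and Rfng missed, with differences of -0.73, -0.87 and -0.59 (adjusted p = 0.331, 0.140 and 0.322), and Adam17 and Snw1 missed as well (adjusted p = 0.0879 and 0.127). Their p ran over the alternatives from 3.47e-04 to 0.361 for Hes6, from 0.00276 to 0.140 for Numbl, from 5.15e-04 to 0.322 for Rfng, from 0.00500 to 0.127 for Adam17, from 0.00148 to 0.177 for Dner, from 0.00863 to 0.154 for Psen2 and from 0.0144 to 0.163 for Snw1.

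The genes most like Dll1 over the 11 libraries, among 19325 others, were Mettl26 (Pearson r = 0.99), Mcoln1, Gm44949, Vmac and Nudt14 (r = 0.97 each), on log2 CPM scaled over all libraries. Mettl26 was at 13.3 and 13.6 CPM in WT mESCs and at 37.3, 22.8 and 35.6 CPM in KO1, KO2 and KO3, against 8.71 to 15.7 CPM in MEFs. As for Dll1, KO2 lay between WT and the other KO libraries, on a much narrower scale. The genes most like Hes1 were Ddr2, Nr4a2, Gm20632 and Thap12 (r = 0.98 each) and Gm4430 (r = 0.97). Ddr2, a collagen receptor, was at 58.2 and 49.4 CPM in WT mESCs and at 10.6, 17.6 and 6.40 CPM in KO1, KO2 and KO3. In MEFs Ddr2 was at 261, 378 and 322 CPM in WT and at 150, 201 and 324 CPM in KO1, KO2 and KO3. These r values are a description: the 11 points share cell type, label, depth and base composition, and no p is given.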

How the data were processed

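The authors deposited 1 table per cell type with raw read counts per gene ("raw" columns), which were used here. The authors also deposited signal columns, which are counts scaled by a size factor for each library, with and without division by transcript length. These served only for an alternative call rule. The authors' columns of fold change and p compare the genotypes within a cell type and were not used. Per the submitters' processing notes, reads passed through bcl2fastq 2.17.1.14, cutadapt 1.10, STAR 2.5.3a (mm10), HTSeq 0.6.1p1 and DESeq2 1.16.1. The gene annotation and strand setting of the counting are not stated.

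Counts were fitted here with edgeR 4.0.16 (quasi-likelihood test, filterByExpr, TMM) in R 4.3.3, for each cell type and for all 11 libraries in 4 groups, with Benjamini-Hochberg adjustment over all genes of a fit and calls at an adjusted p of 0.05 or less. The procedure was tested on simulated data. Alternatives were RLE size factors, no filter, at least 10 counts in every library, DESeq2 1.42.0, a 2-fold rule with a level minimum, the replicate number as a block, a GC correction (lowess span 0.3), both together, a fit of all 11 libraries, a fit of the 5 WT libraries and each library left out. Gene lengths, GC content and coordinates came from GENCODE M21, promoters from RefSeq. Tables and figures used Python 3.11.15 with pandas 2.3.3, numpy 2.4.6, scipy 1.17.1 and matplotlib 3.10.9.

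In MEFs deviations from the group mean, on log2 CPM, correlated at 0.47, 0.13 and 0.29 between the WT and KO libraries of replicates 1, 2 and 3 over 15958 genes. Each library matched best with the one of its own number, but whether the MEF libraries are paired was not tested. Each embryo was separate and no pairing is stated, so the fit without a block is the one reported. In mESCs only KO3 carries replicate number 3, so with a block KO3 adds nothing to the difference between mESC genotypes. Between the WT cell types the block joins mESC and MEF libraries by number alone.

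The 10 genes, the 50 pathway genes and the 9 marker lists (pluripotent, fibroblast, endothelial, mural, presomitic mesoderm, neural progenitor, epithelial, haematopoietic, sex) were chosen with earlier results of these data known. Named were the 10 genes, Atxn7l3, Rbpj, up to 15 called pathway genes per comparison by size of change, the genes that start within 200 kb of the Dll1 start, and the 5 genes most like Dll1 and Hes1. The markers that passed the test were named after their values were seen. A further WT mESC dataset was not analysed here. The authors left it out after a principal component analysis placed it apart from the other replicates. The WT mESC spread given here therefore covers only the libraries they kept.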

Additional observations from a re-analysis of the deposited data

Results flagged for a closer look

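For 8 pathway genes the effect of the label differed between the cell types by the edgeR test of that difference (MEFs minus mESCs, log2): Rfng by -1.71, Adam17 by 1.18, Psen2 by 1.32, Snw1 by 1.05, Numbl by -2.02, Dtx1 by -5.75, Dner by -5.12 and Hes6 by -2.10. With the replicate block Rfng, Adam17, Psen2 and Snw1 missed (adjusted p = 0.0650, 0.0654, 0.0561 and 0.0847). With the GC correction Rfng, Numbl and Hes6 missed, at -0.59, -0.87 and -0.73 (adjusted p = 0.322, 0.140 and 0.331). Adam17 and Snw1 missed there too (adjusted p = 0.0879 and 0.127). For Dll1, Jag1 and Notch1, all KO libraries lay above WT in mESCs and below WT in MEFs, with log2 fold changes of -1.47, -1.96 and -2.49 in MEFs. For these 3 the difference between the cell types was not tested.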

How the results depend on the processing

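Each group holds 2 or 3 libraries, and the mESC groups share no more than 2 WT lines, so single libraries decide many calls. No direction called in the edgeR fit as reported was reversed under an alternative, while Hes1, called lower in MEFs with the replicate block, was fitted higher with the GC correction. The members called in MEFs numbered 2, and 1 with at least 10 counts in every library, 4 with DESeq2, 4 with the replicate block, 1 with the GC correction, 4 in 1 fit of all 11 libraries and 0 to 3 with a library left out. The pathway genes called in MEFs numbered 5, and 16 with DESeq2, 12 with the block, 9 with the GC correction and the block, 18 in the fit of all 11 libraries and 1 to 10 with a library left out. Over all genes in MEFs the count moved as well: 1501 as reported, 2232 with the block and 197 to 2038 with a library left out. For the other settings the share over all genes is not given. The counts in this section thus show how calls depend on the processing, and not a result about the members or the pathway. In mESCs they numbered 3, and 9 with no filter, 12 with DESeq2, 1 in the fit of all 11 libraries and 0 to 6 with a library left out. The replicate numbers do not pair the mESC libraries (r = -0.02 and -0.19 over 17800 genes), and with them as a block 4 were called. In that fit KO3 adds nothing to the difference, as no WT mESC library shares its number. The members called between the WT cell types numbered 5, and 4 to 6 over the alternatives, 5 with the block. The pathway genes with a different effect in MEFs and mESCs numbered 8, and 16 with DESeq2, 5 with the block, 5 with the GC correction, 3 with the GC correction and the block and 1 to 10 with a library left out. Where leaving out a WT mESC leaves 1 library, it is assumed to vary like the other group. For single genes, called or not, the result held in 175 of the MEF values under the alternatives. A call was lost in 31 and gained in 10, and 5 uncalled values moved. Some changes of sign in uncalled values count as held, among them some of Jag2 and Notch2. In mESCs 168 results held, 22 calls were lost and 7 values moved. The 168 include values of the 10 genes, which had no test and so no call to hold. The same applies to Dll1 between the WT cell types. Between the WT cell types 506 held, 15 were lost, 5 were gained and 2 moved. For the difference between the cell types 96 held, 72 were lost and 1 moved.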
